A study of Drosophila melanogaster with 31 samples.

Results

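The unfolded protein response genes and endoplasmic reticulum (ER) chaperone genes of Drosophila were followed in RNA of single clones cut from the larval eye imaginal disc, the epithelium that forms the adult eye. The set holds 9 genes, Xbp1, Ire1, PEK, Atf6, crc, Hsc70-3, Gp93, Calr and wbl, taken by FlyBase identifier and symbol from the 17559 genes of the count table. Clones of about 50 cells each were made by mitotic recombination on the right arm of chromosome 3 (MARCM) and isolated by laser capture from the dividing region in front of the morphogenetic furrow. The 8 groups were Tsc1 foxoRi (Tsc1[Q87X] clones with foxo knocked down by an RNAi hairpin, 4 libraries per food), Tsc1 (Tsc1[Q87X] without knockdown, 4 per food), foxoRi (knockdown without the Tsc1 mutation, 4 on normal food and 3 under NR) and wt (isogenic control chromosome, 4 per food). NR (nutrient restriction) food held 10% of the yeast of normal food. Larvae were sampled 6.5 days after egg laying under NR and 4.5 days after egg laying on normal food, so that food and age are the same contrast.

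All larvae, controls included, received the clone-inducing heat shock of 11 min at 37 °C at 36 h after egg laying. The hairpin was driven by tub-Gal4, held back by a temperature-sensitive Gal80, and was released by moving larvae to 30 °C for 12 h before dissection. Clones without knockdown came from larvae left at 25 °C, which the study describes as siblings. The labels do not state whether these carried the hairpin unexpressed. So the effects of the knockdown and of the temperature shift cannot be told apart in any comparison. Each library came from a single clone with no pooling. The labels do not state that the clones of a group came from separate larvae, and the p-values then measure only the spread between these libraries.

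The unfolded protein response adjusts the folding capacity of the ER to its load. Ire1, a kinase and endoribonuclease of the ER membrane, cuts an intron out of the Xbp1 mRNA, and the spliced form encodes a transcription factor for chaperone genes. PEK (the fly PERK) phosphorylates the translation factor eIF2alpha, which lowers translation in general and favours that of crc, the fly ATF4. Atf6 is a membrane-bound transcription factor that is cut free in the Golgi. Hsc70-3 (BiP), Gp93 (GRP94), Calr (calreticulin, which binds calcium and glycoproteins) and wbl (windbeutel, related to protein disulfide isomerases) are proteins of the ER lumen. The sensors act largely through splicing, phosphorylation and cleavage. A count per gene measures none of these, and spliced and unspliced Xbp1 were not separated.

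In BDGP6.54, Xbp1 (FBgn0021872) lies on 2R at 21143545 to 21145750, Atf6 (FBgn0033010) on 2R at 5144733 to 5154756 and wbl (FBgn0004003) on 2R at 19249395 to 19250917, each on the plus strand. Ire1 (FBgn0261984) occupies 3R 19853908 to 19861291, PEK (FBgn0037327) 3R 5458563 to 5464753 and Calr (FBgn0005585) 3R 9628691 to 9630851, all on the minus strand, whereas Gp93 (FBgn0039562) is on the plus strand of 3R at 27948711 to 27952151. The gene crc (FBgn0000370) is on the plus strand of 2L at 21310866 to 21319527, and Hsc70-3 (FBgn0001218) is on the minus strand of X at 11801696 to 11807117. All 9 are protein coding. Ire1 overlaps MICU3 and Gp93 overlaps CG4951 on the opposite strand, and crc overlaps CG46314 and Calr a stable intronic sequence RNA on the same strand. Atf6 and crc also overlap annotated transposon insertions. A strand setting can separate only genes on opposite strands, and that of the counting is not given in the sources used here. Reads of the overlapping genes therefore cannot be told apart here. For PEK, 67.7% of the 31 deposited values were not whole numbers, against 3.23% for wbl, and all values were rounded for the tests.

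Of the 31 libraries, 29 had at least 7000 genes with a count and were used. Their total counts ranged from 6877877 to 13316136, of which ribosomal RNA genes took 33.7% to 64.7%. The transcript of the targeted gene had no common direction in the libraries labelled foxoRi. Under NR, foxo averaged 38.6 ± 10.7 CPM in Tsc1 foxoRi against 26.3 ± 1.96 CPM in Tsc1 (SD, n = 4 each), and 58.1 ± 28.5 CPM in foxoRi (n = 2) against 49.9 ± 9.37 CPM in wt (n = 4). On normal food it averaged 29.5 ± 9.18 CPM in Tsc1 foxoRi against 34.5 ± 3.16 CPM in Tsc1 (n = 4 each), and 37.1 ± 8.55 CPM in foxoRi (n = 4) against 45.4 ± 21.03 CPM in wt (n = 3). The mean was thus higher under NR and lower on normal food in both genotypes, and the log2 fold change averaged over the 4 comparisons was 0.06 ± 0.15 (SE, edgeR adjusted p = 1.00). The transcript counts therefore do not check the label foxoRi, and FoxO protein, which the study stained for, was not analysed here. The Tsc1 allele is a point mutation, which a transcript level does not check. Eye progenitor markers (8 genes, among them ey, eya and so) were present in every group, with a summed level between 975 and 2690 CPM. Furrow and photoreceptor markers (8 genes, among them gl and elav) were also present in every group, with a summed level between 53.5 and 1658 CPM. Salivary gland markers summed to 1.88 to 624 CPM in Tsc1 and 2.46 to 107 CPM in Tsc1 foxoRi under NR, against at most 17.7 CPM in any library of the other groups. Fat body markers reached higher sums, 4.13 to 848 CPM in Tsc1 and 17.4 to 3121 CPM in Tsc1 foxoRi under NR. The medians of these groups were 218 and 30.6 CPM. The highest fat body sum of every other group was lower than the highest of either. The sum of 3121 CPM was above the highest eye progenitor sum, 2690 CPM. CPM is the read count scaled to a common library size, with factors from the trimmed mean of M values (TMM).

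All 9 genes had reads in each of the 29 libraries and passed the filter on low counts. Per kilobase of exon, crc had the highest mean level, 143 ± 36.7 CPM per kb, followed by Calr at 129 ± 19.9, Hsc70-3 at 76.0 ± 18.5, Gp93 at 61.0 ± 15.04 and Xbp1 at 36.7 ± 7.96 CPM per kb (SD over 29 libraries). Atf6 (10.0 ± 2.93), PEK (9.43 ± 2.65), wbl (8.999 ± 7.57) and Ire1 (6.48 ± 1.97 CPM per kb) formed a lower set. The steps from Gp93 to Xbp1 and from Xbp1 to Atf6 held in 29 of 29 libraries. Neighbours within the lower set did not keep their order: Atf6 was above PEK in 17 libraries, PEK above wbl in 19 and wbl above Ire1 in 16. The gene crc was above Calr in 20 of 29 libraries, and Hsc70-3 above Gp93 in 23. Among the 11488 protein-coding genes tested, 98.9% had a lower level per kb than crc and 65.7% a lower one than Ire1.

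The members also differed in how stable they were. Calr varied least, with a coefficient of variation of 15.5% over the 29 libraries and a range of 148 to 280 CPM. For Xbp1, Hsc70-3, Gp93 and crc the coefficient was 21.7% to 25.6%, and for PEK, Atf6 and Ire1 it was 28.1% to 30.4%. Atf6 ran between 13.8 and 62.8 CPM. The coefficient of wbl was 84.2%. Its count ran between 2 and 306 reads and its level between 0.213 and 39.9 CPM, and its spread within groups exceeded that of 94.2% of the 501 genes nearest to it in mean level.

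**Figure D1:**
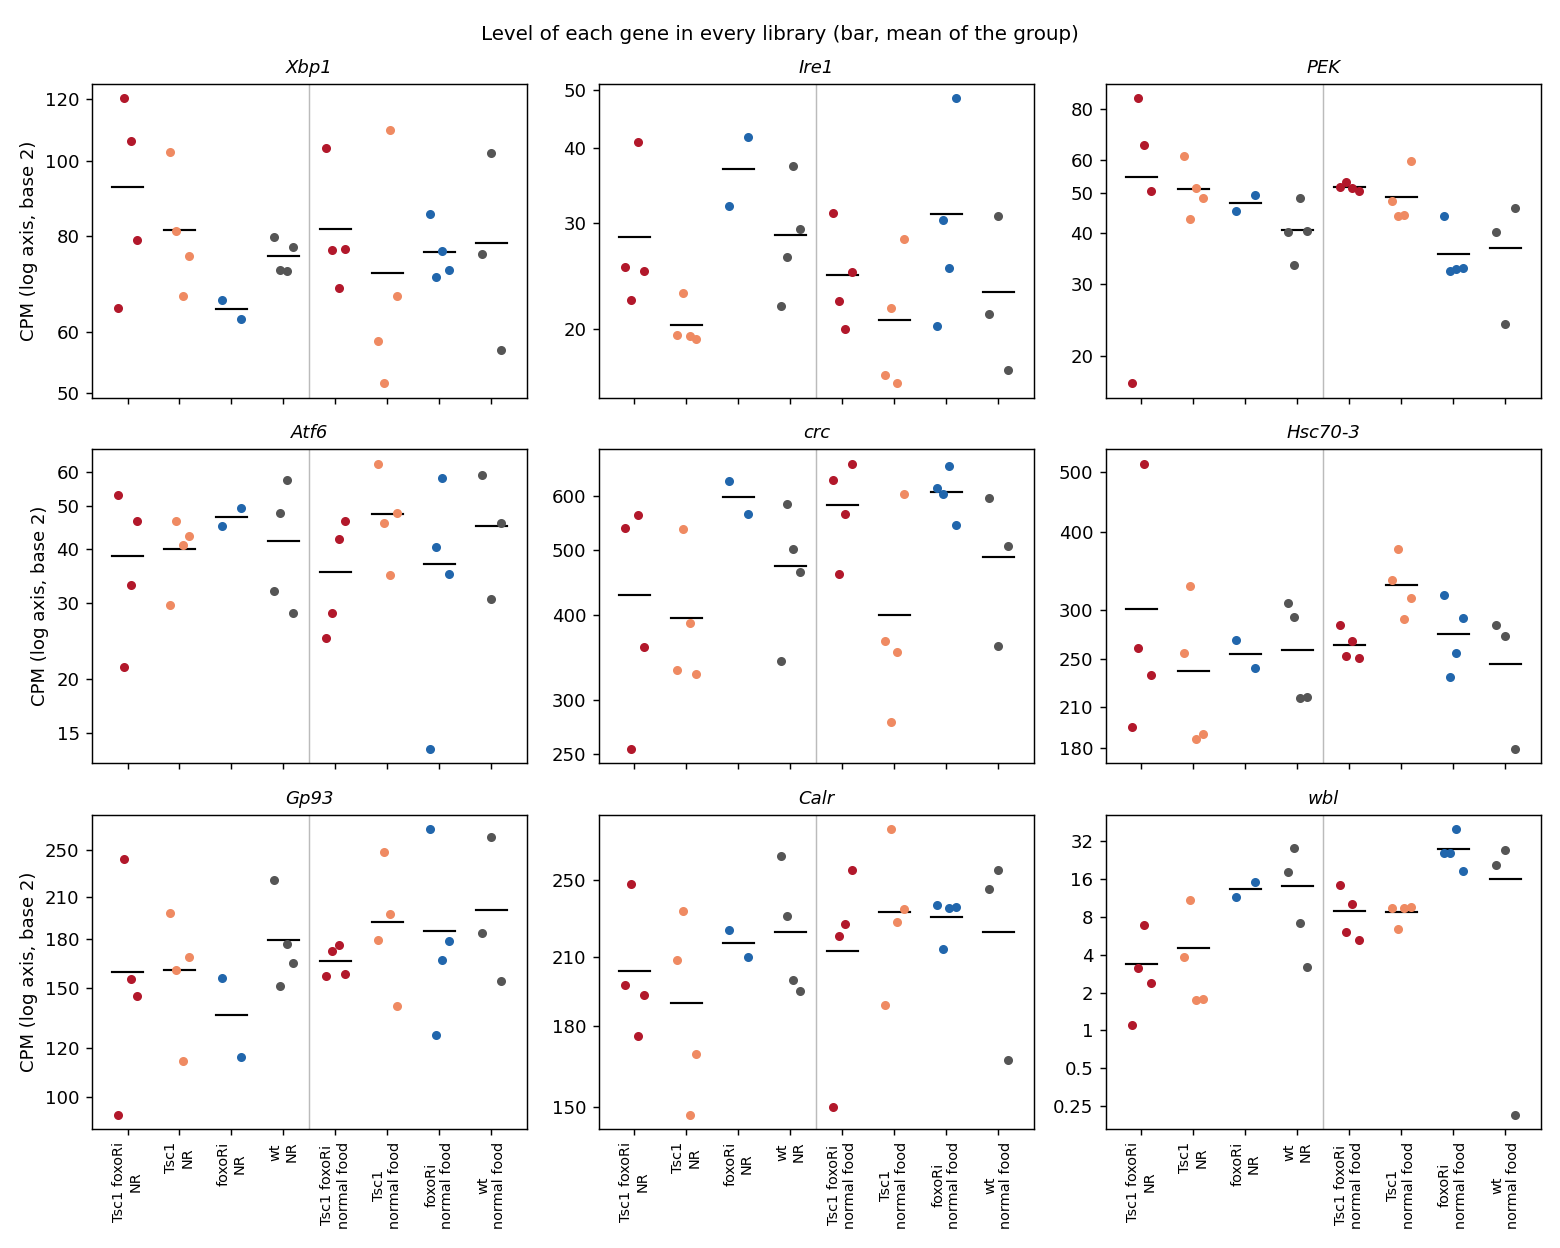
Level of each of the 9 genes in 29 libraries, as CPM on a log axis that differs between panels, with NR groups left of the line and normal food groups right of it. Points are libraries and bars are group means. The 8 genes other than wbl stay within a few fold in all groups, whereas wbl spans 0.213 to 39.9 CPM and is low in most Tsc1 and Tsc1 foxoRi libraries.

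The first question was whether foxo knockdown changed these genes in Tsc1 clones under NR. A gene was called where its adjusted p (edgeR's quasi-likelihood test with Benjamini-Hochberg adjustment over 13526 genes) was under 0.2 and its log2 fold change exceeded 0.8 in size. None of the 9 was called, beside 0.872% of all genes, none had an unadjusted p under 0.05, and DESeq2 also called none. Fold changes ran between -0.43 for wbl and 0.48 for Ire1, with a median of 0.10 over the 9 genes and 0.08 over all genes tested. For 6 of the 9, the 95% interval lay within 0.8 of 0 on the log2 scale.

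Hsc70-3, the main ER chaperone of the Hsp70 family, had 195, 261, 515 and 236 CPM in the Tsc1 foxoRi libraries, against 256, 328, 187 and 190 CPM in the Tsc1 libraries under NR. Replicate 3 of Tsc1 foxoRi stood above all others, and the remaining libraries of the 2 groups overlapped. The log2 fold change was 0.33 ± 0.24 (SE), with an interval of -0.16 to 0.82 and an adjusted p of 0.941. Without replicate 3 of Tsc1 foxoRi it was -0.055. The same replicate had the highest Ire1 level of its group.

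Ire1 had the smallest p of the 9 in this comparison. Its level was 25.4, 22.4, 40.9 and 25.0 CPM in Tsc1 foxoRi, against 19.6, 22.9, 19.5 and 19.3 CPM in Tsc1. The groups overlapped only through replicate 2 of each, and the log2 fold change was 0.48 ± 0.28 (adjusted p = 0.868), or 0.26 without replicate 3 of Tsc1 foxoRi. Xbp1, the substrate of Ire1, had 64.5, 121, 106 and 79.0 CPM in Tsc1 foxoRi, against 103, 81.0, 66.8 and 75.3 CPM in Tsc1. Both extremes of Xbp1 were in Tsc1 foxoRi, and the change was 0.18 ± 0.23 (adjusted p = 0.986). Without 1 library it ran between 0.055 (without replicate 3 of Tsc1) and 0.32 (without replicate 1 of Tsc1).

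PEK spread widely in Tsc1 foxoRi, with 17.2, 85.1, 65.5 and 50.5 CPM, against 61.3, 43.1, 51.3 and 48.5 CPM in Tsc1 under NR. Both the lowest and the highest PEK level of the 29 libraries were thus among the Tsc1 foxoRi clones. The log2 fold change was 0.10 ± 0.29, with an interval of -0.49 to 0.69. It changed sign when replicate 2 of Tsc1 foxoRi (-0.17) or replicate 2 of Tsc1 (-0.037) was left out, and was within 0.0001 of 0 without replicate 3 of Tsc1 foxoRi. The lumenal proteins Gp93 (-0.01 ± 0.26) and Calr (0.10 ± 0.19) and the transcription factors Atf6 (-0.05 ± 0.34) and crc (0.11 ± 0.25) had log2 fold changes smaller than their errors.

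On normal food, none of the 9 was called in Tsc1 foxoRi against Tsc1 either, beside 0.0591% of all genes (DESeq2 also 0). The single unadjusted p under 0.05 was that of crc. Its level was 634, 460, 565 and 669 CPM in Tsc1 foxoRi, against 367, 279, 354 and 603 CPM in Tsc1. Replicate 4 of Tsc1 lay among the Tsc1 foxoRi libraries and the other 3 lay below them, with a log2 fold change of 0.54 ± 0.25 and an adjusted p of 0.659.

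Hsc70-3 was lower in all 4 Tsc1 foxoRi libraries on normal food, with 283, 253, 268 and 251 CPM, against 335, 376, 290 and 313 CPM in the Tsc1 libraries. This was the only member whose 2 groups did not overlap in that comparison, beside 3.33% of all genes. The log2 fold change was -0.32 ± 0.24 with an interval of -0.80 to 0.17 (adjusted p = 0.803). PEK had 51.6, 53.1, 51.3 and 50.4 CPM against 47.8, 43.9, 44.0 and 59.8 CPM in Tsc1 (0.08 ± 0.29). For Xbp1 the levels were 104, 76.7, 68.5 and 76.9 CPM in Tsc1 foxoRi, against 58.4, 51.5, 110 and 66.7 CPM in Tsc1 (0.19 ± 0.23). A single library in each Xbp1 group stood above the rest, and the groups overlapped.

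In clones without the Tsc1 mutation, 0 of the 9 genes was called under NR (0% of all genes) and 0 on normal food (0.0813% of all genes), with 0 at an unadjusted p under 0.05 and 0 with DESeq2 in both. Under NR the smallest p was that of Gp93, with 155 and 116 CPM in the 2 foxoRi libraries, against 223, 151, 177 and 164 CPM in wt. The ranges overlapped and the log2 fold change was -0.40 ± 0.32 (adjusted p = 0.908). Xbp1 was the only member without overlap, at 66.0 and 62.4 CPM in foxoRi against 79.6, 72.1, 72.1 and 77.4 CPM in wt, beside 12.0% of all genes (-0.23 ± 0.29). On normal food the smallest p was that of Ire1, with 20.3, 30.3, 25.3 and 48.4 CPM in foxoRi, against 21.2, 30.9 and 17.1 CPM in wt. The wt range of Ire1 lay largely inside that of foxoRi (0.43 ± 0.30, adjusted p = 0.666). The value rested on single libraries: it was 0.15 without replicate 4 of foxoRi, 0.70 without replicate 2 of wt, and 0.83 with replicate 4 of wt, which was set aside, put back.

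The NR comparison of foxoRi with wt depended on a library that was set aside. Replicate 3 of foxoRi under NR had 4726 genes with a count and was left out. With it put back alone, 2 members were called higher in foxoRi than in wt under NR, Xbp1 (1.57 ± 0.47, adjusted p = 0.0818) and Hsc70-3 (1.35 ± 0.41, adjusted p = 0.0834). With the other library that was set aside put back alone, 0 was called.

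**Figure D2:**
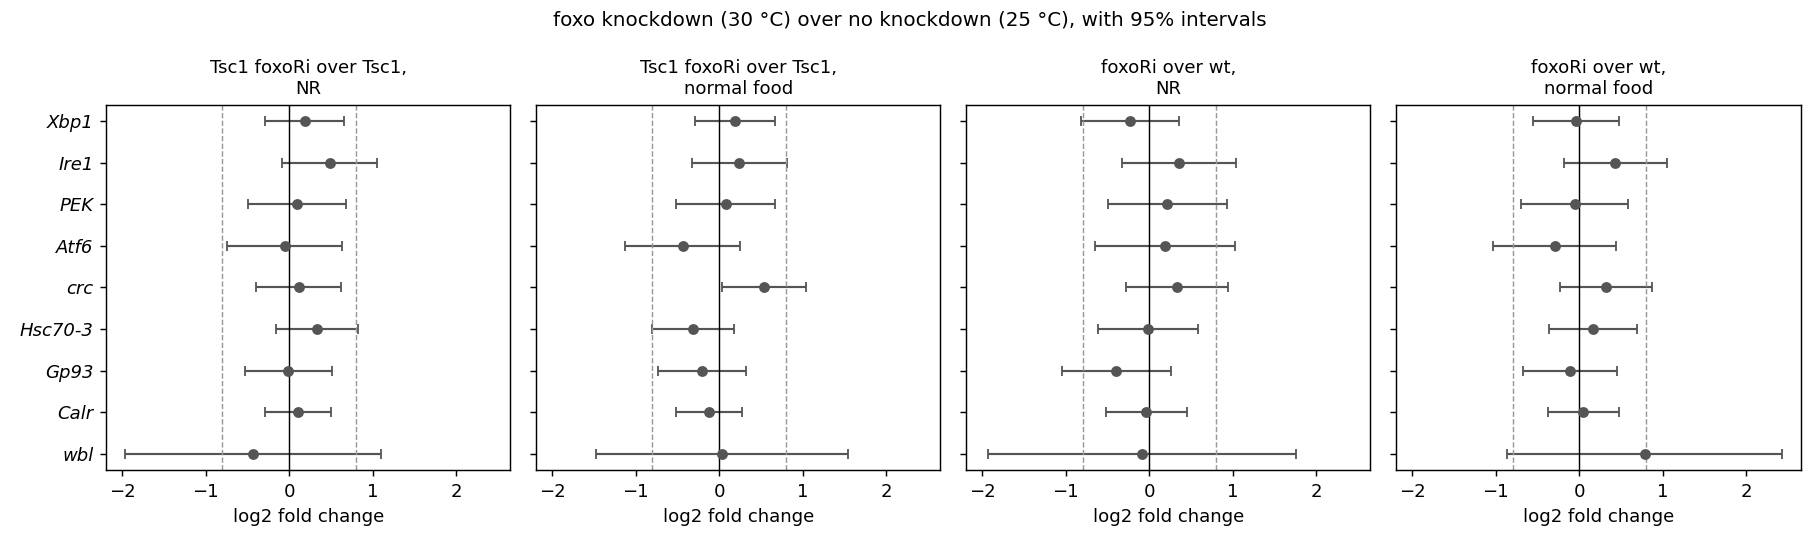
Log2 fold change of each gene with its 95% interval in the 4 comparisons of libraries labelled foxoRi at 30 °C over libraries without knockdown at 25 °C. Dashed lines mark 0.8 in either direction. No gene was called, and the interval of crc in Tsc1 clones on normal food (0.03 to 1.05) is the only one that leaves out 0.

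Averaged over the 4 comparisons, again 0 of the 9 was called, beside 0.917% of all genes, with 2 at an unadjusted p under 0.05 and 0 with DESeq2. These 2 were Ire1, at 0.38 ± 0.15 on the log2 scale (adjusted p = 0.321), and crc, at 0.33 ± 0.13 (adjusted p = 0.339). Both were positive in all 4 comparisons, Ire1 between 0.24 and 0.48 and crc between 0.11 and 0.54. The other 7 ran between -0.18 for Gp93 and 0.08 for PEK. For 8 of the 9 genes the interval lay within 0.8 of 0, the exception being wbl (-0.75 to 0.89). The bounds were -0.22 to 0.30 for Hsc70-3, -0.22 to 0.21 for Calr and -0.23 to 0.28 for Xbp1. Under other processing settings, the average ran between 0.23 and 0.47 for Ire1 and between 0.19 and 0.35 for crc, with neither called.

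Heat shock genes moved in the same contrast. Of 17, 7 were called higher in libraries labelled foxoRi, among them 6 Hsp70 genes and the co-chaperone gene DnaJ-1 (0.80 ± 0.15, adjusted p = 0.00527), and all 17 were positive. By comparison, 5 of 17 were called higher in Tsc1 foxoRi than in Tsc1 on normal food (16 positive, median 0.62) and 0 under NR (8 positive, median -0.21). In clones without the Tsc1 mutation 0 was called on either food, with 15 positive under NR and 17 on normal food. The Hsp70 copies are nearly identical, so reads can be split among them. The summed level of the list was 2101 to 3050 CPM in Tsc1 foxoRi against 1700 to 2549 CPM in Tsc1 under NR, and 3322 to 3710 CPM in Tsc1 foxoRi against 1702 to 2791 CPM in Tsc1 on normal food. In clones without the Tsc1 mutation it was 2171 to 2427 CPM in foxoRi against 1418 to 1984 CPM in wt under NR, and 2314 to 2691 CPM in foxoRi against 1241 to 2359 CPM in wt on normal food. Over the 29 libraries the correlation with the summed list was 0.06 for Ire1 and 0.25 for crc (Pearson's r of log2 levels, a description, since the libraries share groups and depth). Hsp83 had a median of 1044.5 CPM, against 51.1 CPM for Hsp70Bb and 6.11 CPM for Hsp70Aa, so the sum gives the Hsp70 genes little weight. With the heat-inducible non-coding RNA Hsromega, crc had an r of 0.75. With the summed furrow and photoreceptor list, r was 0.575 for crc and 0.45 for Ire1. As deviations from the group means these were 0.54 and 0.31. The parts of the temperature shift and of cell composition in the values of Ire1 and crc were not tested.

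The second question was how Tsc1 clones differed from clones with the normal gene. Averaged over the 4 matched comparisons, 1 of the 9 genes was called, wbl, beside 7.56% of all genes. A count of 1 in 9 is near that share and does not set the members apart from other genes. The level of wbl was lower in Tsc1 clones, with a log2 fold change of -1.53 ± 0.40, an interval of -2.34 to -0.72 and a fold of 0.346 (unadjusted p = 0.000597, adjusted p = 0.0185). The median over the 9 genes was -0.08 and that over all 13526 genes was 0.15. In ovarian follicle cells, wbl is known for its part in dorsoventral patterning of the embryo through the transport of the sulfotransferase Pipe out of the ER.

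Under NR, wbl had 1.11, 3.11, 6.90 and 2.38 CPM in Tsc1 foxoRi, against 11.5 and 15.2 CPM in foxoRi. All Tsc1 foxoRi libraries were below both foxoRi libraries, with a log2 fold change of -1.98 ± 0.87 (adjusted p = 0.364). Without knockdown it had 3.83, 10.9, 1.73 and 1.77 CPM in Tsc1, against 18.4, 28.1, 7.13 and 3.20 CPM in wt. These ranges overlapped, and the change was -1.64 ± 0.76 (adjusted p = 0.578).

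On normal food, wbl had 14.4, 6.04, 10.2 and 5.19 CPM in Tsc1 foxoRi, against 25.9, 25.8, 39.9 and 18.7 CPM in foxoRi. Again no library of either group lay in the range of the other (-1.62 ± 0.75, adjusted p = 0.426). In Tsc1 it had 9.50, 6.44, 9.49 and 9.52 CPM, against 20.8, 27.1 and 0.213 CPM in wt. The wt replicate 3 with 0.213 CPM, a count of 2 reads, was the lowest of all libraries, and the other 2 wt libraries were above all Tsc1 libraries (-0.87 ± 0.79, adjusted p = 0.736).

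The direction of wbl was thus the same in 4 of 4 comparisons, and no single comparison passed the test. The averages over 1 food at a time, added after these values were seen, were -1.81 ± 0.58 under NR (adjusted p = 0.0944) and -1.25 ± 0.54 on normal food (adjusted p = 0.286), so the call was lost on normal food alone. DESeq2 called it as well, and the call held when each of the 29 libraries was left out in turn, with log2 fold changes between -1.77 and -1.38.

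Other genes moved in the same contrast, and their part in the wbl result was not tested. Of the salivary gland markers, 4 of 7 were called higher in Tsc1, with muscle markers 4 of 7 and fat body markers 2 of 7, and 1 of 8 furrow and photoreceptor markers, sca, was called lower (-1.16 ± 0.46, adjusted p = 0.141). A glial marker, loco, was called lower (1 of 6), and 6 of 17 heat shock genes were called higher, at 1.39 to 2.46 on the log2 scale. The furrow and photoreceptor list summed to 71.3 to 449 CPM in Tsc1 foxoRi and 86.6 to 1590 CPM in Tsc1 on normal food, against 410 to 1658 CPM in foxoRi and 162 to 403 CPM in wt. Under NR it summed to 108 to 225 CPM in Tsc1 foxoRi and 53.5 to 1167 CPM in Tsc1, against 854 to 1056 CPM in foxoRi and 96.2 to 1111 CPM in wt. Salivary gland markers on normal food summed to at most 2.73 CPM in Tsc1 and Tsc1 foxoRi. In bulk RNA, fewer cells of a type and less RNA per cell cannot be told apart.

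**Figure D3:**
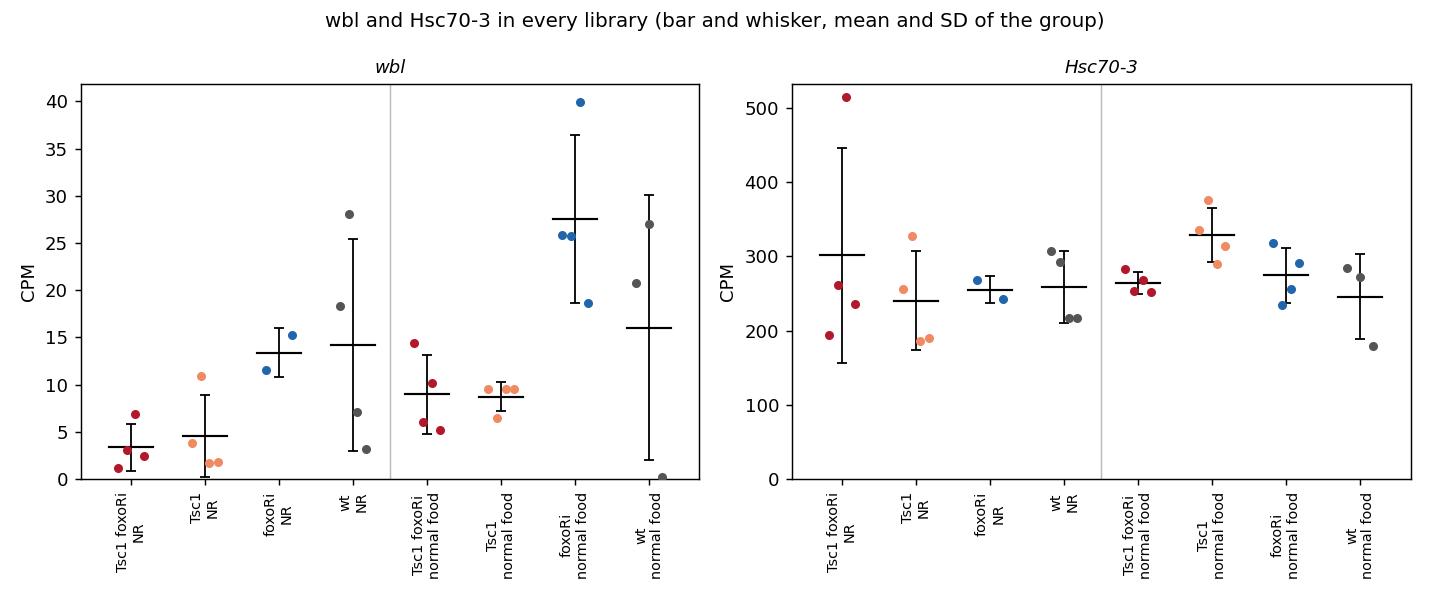
CPM of wbl (left) and Hsc70-3 (right) in every library, on axes that start at 0. Points are libraries, and bars with whiskers are group means and SD, with NR groups left of the line. All Tsc1 foxoRi libraries are below all foxoRi libraries for wbl on each food, and for Hsc70-3 replicate 3 of Tsc1 foxoRi under NR stands alone at 515 CPM.

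The remaining 8 genes moved little with Tsc1. PEK was at 0.37 ± 0.16 (adjusted p = 0.175) and Ire1 at -0.34 ± 0.15 (adjusted p = 0.196), so that both were under the adjusted p threshold but short of the fold limit. With the number of detected genes as a covariate both lost the adjusted p threshold, with PEK at 0.32 (adjusted p = 0.335) and Ire1 at -0.19 (adjusted p = 0.553), and with all 31 libraries Ire1 was at -0.11. PEK was positive in 4 of 4 comparisons (0.21 to 0.54) and Ire1 negative in 4 of 4 (-0.50 to -0.15). The largest PEK difference was on normal food with knockdown, where all 4 Tsc1 foxoRi libraries (50.4 to 53.1 CPM) were above all 4 foxoRi libraries (32.3 to 43.8 CPM), at 0.54 ± 0.29 (adjusted p = 0.494). Next came crc at -0.27 ± 0.13 (adjusted p = 0.267). Hsc70-3 (0.12 ± 0.13), Xbp1 (0.15 ± 0.13), Gp93 (-0.04 ± 0.14), Calr (-0.09 ± 0.10) and Atf6 (-0.08 ± 0.18) had intervals that lay between -0.45 and 0.41.

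Each of the 4 Tsc1 comparisons called 0 of the 9 genes with edgeR and with DESeq2. The shares of all genes called were 1.53% for Tsc1 foxoRi against foxoRi under NR, 0.843% for the same pair on normal food, 0.665% for Tsc1 against wt under NR and 1.24% for that pair on normal food. At an unadjusted p under 0.05 the counts were 1, 1, 1 and 0 in that order, each time wbl. Genes without overlap between the groups were crc and wbl, both lower in Tsc1 foxoRi than in foxoRi under NR, beside 18.8% of all genes. On normal food they were wbl and PEK, beside 5.26% of all genes. For Tsc1 against wt on normal food the only such member was Hsc70-3, at 335, 376, 290 and 313 CPM in Tsc1 against 284, 273 and 180 CPM in wt, beside 7.62% of all genes (0.42 ± 0.26, adjusted p = 0.574).

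Here too the result turned on the set-aside foxoRi library under NR. With that library put back alone, 4 members were called lower in Tsc1 foxoRi than in foxoRi under NR: wbl (-3.33 ± 0.90), Xbp1 (-1.32 ± 0.47), Hsc70-3 (-1.16 ± 0.40) and Calr (-0.89 ± 0.31). The average over 4 comparisons called wbl alone, at -1.87 ± 0.42.

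**Figure D4:**
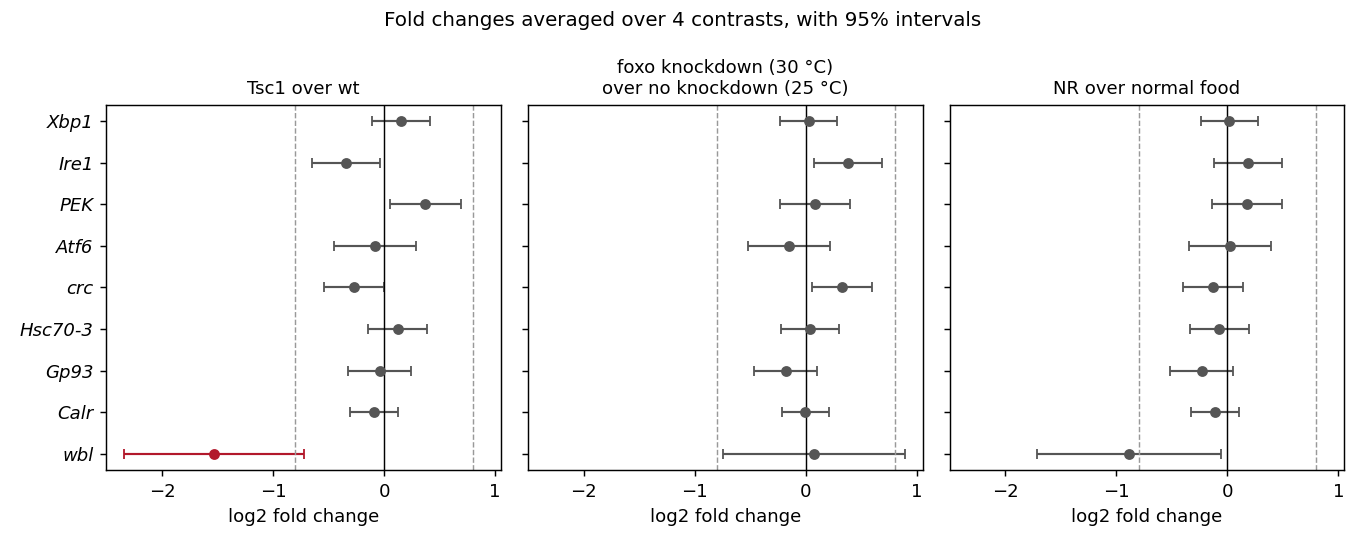
Log2 fold change of each gene, averaged over 4 comparisons, for Tsc1 over wt, foxo knockdown at 30 °C over no knockdown at 25 °C, and NR over normal food. Whiskers are 95% intervals, dashed lines mark 0.8 in either direction and red marks a called gene. Only wbl in the Tsc1 panel is red, and all intervals of the other 8 genes lie between the dashed lines.

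The third comparison set NR at 6.5 days against normal food at 4.5 days. Over the 4 genotypes 0 of the 9 genes was called, beside 0.104% of all genes, with 1 at an unadjusted p under 0.05 and 0 with DESeq2. That gene was wbl, at -0.89 ± 0.41 (adjusted p = 0.670), with negative values in 4 of 4 genotypes between -1.40 in Tsc1 foxoRi and -0.17 in wt. In the Tsc1 foxoRi clones its levels under NR and on normal food, given above, overlapped through replicate 3 under NR, at 6.90 CPM. The other 8 ran between -0.23 for Gp93 and 0.19 for Ire1, all with intervals within 0.8 of 0. Fat body markers moved in the same contrast, 2 of 7 called higher under NR.

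By genotype, the share of all genes called under NR against normal food was 1.58% in Tsc1 foxoRi, 0.0444% in Tsc1, 0% in foxoRi and 0% in wt, and the number of members called was 0 in all 4, also at an unadjusted p under 0.05 and with DESeq2. The smallest p among members was that of Hsc70-3 in Tsc1 clones, with 256, 328, 187 and 190 CPM under NR against 335, 376, 290 and 313 CPM on normal food (-0.45 ± 0.24, adjusted p = 0.612). Replicate 2 under NR reached into the normal food range and the other 3 were below it. In foxoRi clones, 3 members did not overlap between foods, beside 9.84% of all genes: Xbp1 and wbl were lower and PEK higher under NR, with 2 libraries in the NR group. With replicate 3 of foxoRi under NR put back, Xbp1 (1.55 ± 0.47) and Hsc70-3 (1.25 ± 0.40) were called higher in foxoRi under NR than on normal food.

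Whether the knockdown acted differently between foods or genotypes was tested with interaction terms. A further term compared the food difference between Tsc1 and wt clones without knockdown. In all 3 terms, 0 of the 9 genes was called (also with DESeq2 and at an unadjusted p under 0.05). The smallest p was that of Hsc70-3, whose knockdown difference in Tsc1 clones was 0.65 ± 0.34 higher under NR than on normal food on the log2 scale, with an interval of -0.04 to 1.34 (adjusted p = 0.980), beside 0% of all genes called. Without replicate 3 of Tsc1 foxoRi under NR this was 0.26. The knockdown difference under NR was 0.35 ± 0.38 higher for Hsc70-3 in Tsc1 than in wt clones, beside 0% of all genes, and was -0.037 without the same replicate and -1.04 with replicate 3 of foxoRi under NR put back. The food difference of wbl in Tsc1 minus that in wt was -0.77 ± 1.09 (adjusted p = 0.911), beside 0.118% of all genes. An interaction of this size for Hsc70-3 could not be told from 0 at this number of libraries.

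Related genes were read from lists, chosen with earlier results of these data known. Among 17 genes for ER folding and glycoprotein quality control, 0 was called in any of the 3 averaged contrasts, with medians of 0.04 for Tsc1, -0.14 for knockdown and -0.09 for NR. The smallest p with knockdown was that of ERp60, a disulfide isomerase, at -0.59 ± 0.15 (adjusted p = 0.0793, short of the fold limit), followed by the glucosidase subunit gene GCS2alpha at -0.35 ± 0.14 (adjusted p = 0.322). With Tsc1 the first 2 were prtp at 0.32 ± 0.15 and shv at 0.39 ± 0.22, and with NR Cnx14D at 1.51 ± 1.04 and CG10029 at 1.33 ± 0.94. None of these 4 passed the adjusted p threshold, and Cnx14D and CG10029 were near the floor, with medians of 0.0928 and 0.108 CPM.

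Of 13 translocon genes, which carry nascent proteins into the ER, 0 was called in the averages. With knockdown, CG8860 (-0.57 ± 0.12, adjusted p = 0.0359) and Sec61alpha, the channel subunit (-0.40 ± 0.12, adjusted p = 0.166), were under the adjusted p threshold but not past the fold limit. In Tsc1 foxoRi against Tsc1 under NR, CG8860 was called lower at -0.80 ± 0.23 (adjusted p = 0.189). With Tsc1 the first 2 were CG8860 (0.27 ± 0.12) and Spase12 (0.56 ± 0.26), and with NR CG8860 (-0.38 ± 0.12) and Tapdelta (-0.34 ± 0.13), all above the adjusted p threshold. Of 11 COPII and secretory genes 0 was called in the averages, and Sec22 was called lower under NR than on normal food in Tsc1 foxoRi (-1.05 ± 0.31, adjusted p = 0.149). The first 2 were CrebA (-0.57 ± 0.19, adjusted p = 0.079) and Sar1 (0.30 ± 0.13, adjusted p = 0.186) with Tsc1, both short of the fold limit, Sec22 (0.26 ± 0.16) and Sec31 (-0.17 ± 0.12) with knockdown, and Sec31 (-0.23 ± 0.12) and Surf4 (0.23 ± 0.15) with NR.

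Of 12 genes for eIF2alpha, its kinase Gcn2 and ATF4-linked functions, 2 were called higher in Tsc1 over the 4 comparisons, beside 7.56% of all genes called in either direction. They were Nmdmc, a mitochondrial folate enzyme (2.001 ± 0.39, adjusted p = 0.0017), and Thor, the fly 4E-BP (3.68 ± 1.07, adjusted p = 0.0386). The Thor level was near the floor, with a median of 0.829 CPM and no reads in 9 of the libraries used. The transcription factor gene Xrp1 was at 0.61 ± 0.13 (adjusted p = 0.00338, short of the fold limit), and the median of the 12 was 0.37 beside 0.15 over all genes. In these same libraries crc itself was at -0.27. In single comparisons, 3 of 12 were called higher in Tsc1 foxoRi than in foxoRi on normal food, beside 0.843% of all genes. They were Nmdmc (2.59 ± 0.71), Shmt, a serine hydroxymethyltransferase gene (1.15 ± 0.32), and Xrp1 (0.86 ± 0.23), each with an adjusted p of 0.177. With knockdown 0 of 12 was called, the first 2 being Nmdmc (-1.05 ± 0.37, adjusted p = 0.255) and Shmt (-0.47 ± 0.17). With NR 0 was called, and the first 2 were eIF2beta (-0.18 ± 0.10) and Thor (-0.69 ± 0.74).

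Finally, it was asked how the 9 genes varied together over the 29 libraries, by Pearson's r of log2(CPM + 2). The values are a description, since libraries share groups and depth and differ in cell type markers. Base composition was not measured here. Gp93 and Calr had the highest r, 0.53, and the lumenal proteins were all positively related to each other (Hsc70-3 with Gp93 0.41, with Calr 0.39 and with wbl 0.47, Gp93 with wbl 0.29, Calr with wbl 0.50). Pairs that included a regulator ran between -0.62 and 0.42: Xbp1 with Atf6 was -0.62, Atf6 with Gp93 -0.51, crc with Gp93 -0.45, and Ire1 with Xbp1 0.05. Within groups, as deviations from the group means, Hsc70-3 with wbl had 0.69, Xbp1 with Gp93 0.53, Xbp1 with Atf6 -0.62 and crc with Gp93 -0.63. The total count was related to wbl (-0.50), Atf6 (0.42) and Gp93 (-0.41), and the number of detected genes to Ire1 (-0.46) and PEK (0.33). Marker sums were related to members as well, as deviations from the group means. The eye progenitor sum had 0.77 with Atf6 and -0.48 with Xbp1, and the muscle sum -0.73 and 0.29. The low hemocyte sum had 0.545 with Hsc70-3 and 0.53 with wbl. The part of cell composition in the values between members was not tested.

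**Figure D5:**
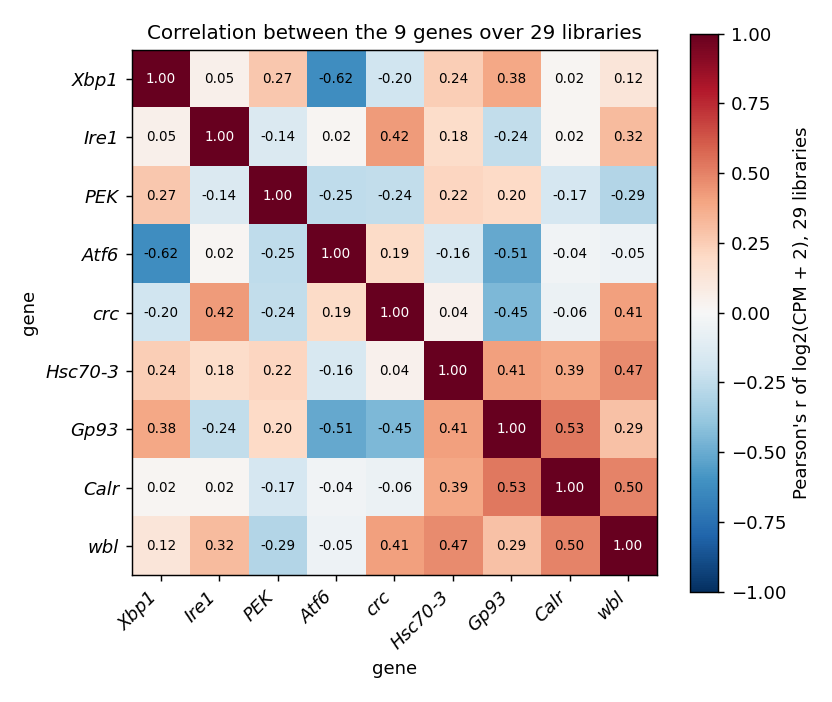
Pearson's r between the 9 genes over 29 libraries, from log2(CPM + 2), with red for positive and blue for negative values. The 4 lumenal proteins at the lower right are positively related (0.29 to 0.53), and Xbp1 with Atf6 is the lowest value (-0.62).

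No member was the gene most like another member. Among all genes tested, the 3 most like Gp93 were ERp60 (r = 0.73), the RNA-binding protein gene Dp1 (0.73) and ND-39 (0.70), and Calr ranked 118. For wbl they were ImpE1, a gene named for its induction by ecdysone (0.81), Fkbp14, an ER prolyl isomerase gene (0.805), and bip1 (0.78), and for Hsc70-3 Papss (0.72), Arfip (0.66) and fliI (0.66). For Xbp1 they were RecQ4 (0.68), colt (0.66) and the coatomer subunit gene betaCOP (0.66), and for crc RhoGAP100F (0.76), the heat-inducible non-coding RNA Hsromega (0.75) and CG34244 (0.74). Calr went with geko (0.76), Pglym78 (0.72) and obst-A (0.71), and Atf6, for which 2 genes are given, with Galphaq (0.72) and Eph (0.72). PEK went with CG31643 (0.74), FBgn0027585 (0.70) and CPT2 (0.70), and Ire1 with CR18166 (0.74), FBgn0016080 (0.69) and CR44024 (0.69).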

How the data were processed

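RNA of 31 single clones in 8 groups was sequenced after Ovation SoLo library preparation. Per the submitters' processing notes, the tools were Trimmomatic, STAR and featureCounts, and the genome build was BDGP6. The authors deposited estimated counts per gene without normalization. Versions are not given in the sources used here. Of the deposited estimated counts, 17.1% were not whole, and all were rounded. Gene names and positions came from the BDGP6.54 annotation, which matched 17253 of 17559 genes. The other 306 stayed in the table.

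Libraries with under 7000 genes with a count were left out (replicate 3 of foxoRi under NR and replicate 4 of wt on normal food). Genes were filtered with filterByExpr, scaled by TMM, and tested with the quasi-likelihood test of edgeR 4.0.16 (R 4.3.3) in 1 fit of 8 groups. Called means an adjusted p (Benjamini-Hochberg) under 0.2 and an absolute log2 fold change over 0.8. SE is the size of the log2 fold change over the root of F, and 95% intervals use the test's degrees of freedom. The script was tested on simulated data. Changes were set only in genes of a higher mean level than wbl, and their recovery was checked only in the Tsc1 average. Alternatives were DESeq2 1.42.0, other scalings and filters, the likelihood ratio test, a covariate, a replicate block, all libraries, each set-aside library put back alone, the groups of a comparison alone, no ribosomal RNA genes, a stricter threshold and leaving out each library. The 9 genes and all lists were chosen with earlier results of these data known. Full values are given for called members, for the member with the smallest p in the averaged and the knockdown contrasts, and for Hsc70-3, PEK and Xbp1 in Tsc1 clones. For other lists, values are given for called genes and the 2 with the smallest p in the averaged contrasts. Pdi, AsnS and Tango1 were not analysed here, and no sequences were used. A gene among those most like Atf6 is not reported here.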

Additional observations from a re-analysis of the deposited data

Results flagged for a closer look

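In 54 sets of a member and a group of 4 libraries, 5 had a library that stood apart from the other 3 by a gap test (Dixon, in CPM). Chance gives about 1 in 20. These were Ire1 in replicate 2 of Tsc1 under NR (22.9 CPM, above the others), Ire1 in replicate 3 of Tsc1 foxoRi under NR (40.9 CPM, above), PEK in replicate 1 of foxoRi on normal food (43.8 CPM, above), Calr in replicate 2 of foxoRi on normal food (214 CPM, below) and wbl in replicate 2 of Tsc1 on normal food (6.44 CPM, below). No interaction of a member was called.

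The 2 libraries left out for few detected genes held members above every wt library, with all 31 libraries on 1 scale. Replicate 3 of foxoRi under NR had Xbp1 at 542 CPM, Hsc70-3 at 1458 CPM, Gp93 at 331 CPM, Calr at 669 CPM and wbl at 73.0 CPM, each also above all 29 libraries used. These are 7.18, 5.52, 1.97, 3.03 and 7.63 times the median of the 29. In the same library Ire1 was at 0 reads, Atf6 at 3 and PEK at 26, and crc at 23.4 CPM was 0.0451 times the median, all below the 29. The 13 translocon genes summed to 1477 CPM and COPII genes to 1201 CPM, both above the 29, and eye progenitor markers to 3782 CPM, against 919 to 2728 CPM in the 29. Salivary gland markers summed to 0.234 CPM and muscle markers to 2.34 CPM. Replicate 4 of wt on normal food had Atf6 at 102 CPM, above all 29, and wbl at 38.4 CPM.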

How the results depend on the processing

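The count of called genes was unchanged for 13 of the 18 comparisons under every setting run. With all 31 libraries, and with replicate 3 of foxoRi under NR alone put back (added after seeing the data), it was 2 for foxoRi against wt under NR, 4 for Tsc1 foxoRi against foxoRi under NR and 2 for foxoRi under NR against normal food, where 0 had been called, and the Gp93 value in the first of these turned to 0.17. The Hsc70-3 interaction of knockdown and genotype under NR (0.35) turned to -1.04 in both settings and to -0.037 without replicate 3 of Tsc1 foxoRi under NR. With only the groups of the comparison in the fit, 1 gene, wbl, was called in Tsc1 foxoRi against foxoRi on normal food. In the Tsc1 average restricted to normal food, an alternative added after seeing the data, 0 genes were called and wbl was at -1.25. Over the settings with all 4 comparisons, wbl in the Tsc1 average ran between -1.98 and -1.28 (adjusted p 0.00305 to 0.0665), with the lowest size under the replicate block (-1.28, adjusted p = 0.0665). Replicate numbers were not treated as pairs. Of 39 same-numbered pairs, 15 had a correlation of deviations over 0.1 (-0.507 to 0.707). Pairs with different numbers were not computed, so whether the numbers pair the samples cannot be told. The replicate block changed no call. Leaving out 1 library at a time gave -0.055 to 0.48 for Hsc70-3 and -0.17 to 0.34 for PEK in Tsc1 foxoRi against Tsc1 under NR. The median log2 fold change of all genes with Tsc1 was 0.15, and 0.05 with the number of detected genes as a covariate. Precision is limited by the spread between clones (biological coefficient of variation 0.848), and for wbl by counts down to 2. Counting limits cover counting error only.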
